A study of Mus musculus with 319 samples.

Results

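Gp2, Nmur1, Unc5b, Plch1, Gpld1, Ankrd22, Tspan12 and Bcl6 are 8 genes of 48795 gene entries in the count tables, described here across single thymic tuft cells. The 8 were chosen by measured values of these same wells, namely their reads across cells. Which cells entered that choice is not recorded, so every set is treated as used. Levels, detection, co-detection and correlations of the 8 are therefore given as descriptions with no test. All 8 were found once in each table.

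Tuft cells are rare chemosensory epithelial cells that signal through G proteins, phospholipase C and calcium and release cytokines and lipid mediators. In the thymic medulla they are a branch of the epithelium that displays tissue antigens to developing T cells. Tuft cells vary among themselves in receptors and effector molecules, and the products of the 8 genes include a GPI-anchored surface protein (Gp2) and an enzyme that cuts GPI anchors (Gpld1), a receptor for the neuropeptide neuromedin U (Nmur1) and a phospholipase C (Plch1). The others are a netrin receptor (Unc5b), a tetraspanin of the Norrin and Frizzled receptor complex (Tspan12), an ankyrin repeat protein (Ankrd22) and a transcriptional repressor (Bcl6).

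Cells came from pooled, digested thymi of naive mice of mixed sex. The sort kept EPCAM+, Flare25+ and MHCIIlo cells that were negative for UVBlue, CD11c and CD45, where Flare25 is a reporter of the cytokine gene Il25 and every mouse was labelled Flare25/Flare25. Wild-type (WT) cells, of the strain labelled C57BL/6.Il25 and 6 weeks of age, came in 3 sets, of which June5 held 31 single-cell wells, June29 held 95 and batch 2 held 92. The 96 wells labelled Aire-/- also belonged to batch 2, carried the strain label C57BL/6.Il25.Aire and were 6 weeks old, except for 1 well labelled 5 weeks. The Smart-seq2 libraries cover whole transcripts and carry no molecular identifiers. No animals are named, so each set is 1 sample, no p-value was computed, and intervals cover counting error only. The sort limits the description to cells that reported Il25 and were low in surface MHC class II.

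Of the 314 single-cell wells, 301 were kept as cells, namely 29 of June5, 87 of June29, 89 of WT batch 2 and 96 labelled Aire-/-. Where 4 values follow each other below, they stand for June5, June29, WT batch 2 and the Aire-/- set in that order. Median gene reads per cell ran from 539655 in June5 to 1150167 in June29, and median genes with a read from 4212 to 5136. Where thinning is named, cells were cut to 231697 reads, which 23, 85, 79 and 84 cells of these sets reached. All 28 tuft markers checked were in at least 10% of the cells of every set, and at least 24 of them in 50% of cells. Cells with 5 or more reads of at least 2 markers of thymocytes, B cells or myeloid cells made up 37.9%, 32.2%, 14.6% and 19.8% of the sets, and Cd79b had the most reads of the B cell markers in each set. Aire was at 18.9 CPM (counts scaled to 1e6 gene reads) in WT batch 2 and at 152.7 CPM in the cells labelled Aire-/-, with 7.87% and 33.3% of cells positive. The labels do not say which part of Aire is missing, so these gene-level reads do not check the genotype, and every direction given for this set rests on its label.

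The start-site windows of 3 of the 8 genes are shown, Gp2 for its TATAAA match, Unc5b for the most CG dinucleotides and Bcl6 for the most TTCNNNGAA matches among the 8. They are RefSeq windows of 300 bases on GRCm38.p6, from 250 bases before to 50 after an annotated start, written 5′ to 3′ on the gene's strand. All 8 genes matched the RefSeq table, with 11 windows in all. Capitals mark matches of TATAAA in Gp2 and of TTCNNNGAA, the core shared by STAT and BCL6 motifs, in Bcl6. The Gp2 window is chr7:119459223-119459522, minus strand, the Unc5b window chr10:60831532-60831831, minus strand, and the Bcl6 window, that of the start farther downstream of 2, chr16:23981234-23981533, minus strand.
Gp2: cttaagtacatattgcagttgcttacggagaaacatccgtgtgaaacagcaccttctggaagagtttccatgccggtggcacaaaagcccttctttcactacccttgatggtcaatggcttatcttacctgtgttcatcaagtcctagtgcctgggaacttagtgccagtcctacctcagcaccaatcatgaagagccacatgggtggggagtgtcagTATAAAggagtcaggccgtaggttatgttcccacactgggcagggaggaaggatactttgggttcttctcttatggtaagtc
Unc5b: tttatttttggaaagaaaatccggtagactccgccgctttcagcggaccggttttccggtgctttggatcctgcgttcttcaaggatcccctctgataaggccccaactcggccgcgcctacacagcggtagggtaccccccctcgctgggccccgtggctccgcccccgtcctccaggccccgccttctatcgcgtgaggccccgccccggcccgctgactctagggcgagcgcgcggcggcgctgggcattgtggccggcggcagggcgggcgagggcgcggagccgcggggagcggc
Bcl6: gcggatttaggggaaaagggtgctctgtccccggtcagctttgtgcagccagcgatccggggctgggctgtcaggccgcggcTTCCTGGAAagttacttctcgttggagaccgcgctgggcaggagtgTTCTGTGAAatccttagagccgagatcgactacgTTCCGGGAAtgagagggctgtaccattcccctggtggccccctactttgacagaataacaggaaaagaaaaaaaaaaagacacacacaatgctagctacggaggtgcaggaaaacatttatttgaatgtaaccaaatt

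Gp2 held TATAAA from base -32 to base -27 relative to the start, where a TATA box lies in promoters that have one. Of all 32851 RefSeq windows, 13.6% held TATAAA on either strand, and Tspan12 was the other of the 8 genes with a match. The Bcl6 window shown held 3 matches of TTCNNNGAA, from bases -168, -122 and -88. The window of the other Bcl6 start and 1 of the Plch1 windows each held 1 match, and 8.30% of all windows held any. The Unc5b window had 36 CG dinucleotides and 69.7% G or C, against 4 and 48.3% in Gp2 and a median of 7 and 52.7% over all windows. CAGGTG, an E box, was in Ankrd22 and Gpld1 and in 20.2% of all windows. Neither the octamer ATGCAAAT nor the ETS-type AGGAAGT was in any of the 11 windows, and 1.74% and 9.35% of all windows held them on either strand. TTCNNNGAA and the reverse of its complement are the same letters, so it was counted once. A match describes letters only.

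Gp2 (ENSMUSG00000030954.10, GRCm38 chr7:119442537-119459285, minus strand) encodes glycoprotein 2, a GPI-anchored protein of pancreatic zymogen granules and of the apical surface of microfold cells, where it binds bacterial fimbriae. Summed Gp2 reads gave 1291, 839, 531 and 564 CPM in the 4 sets. Gp2 was the highest of the 8 genes per kilobase of exon in all 4 sets, from 266 to 646 CPM per kilobase, and the next highest member in any set, Nmur1 in June5, was at 18.99. A cell was counted as positive with 5 or more reads of a gene, and 37.9% (95% interval 20.7 to 57.7), 37.9% (27.7 to 48.97), 23.6% (15.2 to 33.8) and 16.7% (9.84 to 25.6) of cells were positive in the same order. Most of the Gp2 signal thus lay in a minority of cells, and part of it in very few. A single June5 cell held 90.6% of that set's Gp2 reads, at 78142 CPM, and a single cell labelled Aire-/- held 53.8% of its set's, at 19007 CPM.

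Cells with 1 to 4 Gp2 reads, below the limit, were 8, 30, 21 and 19 in the 4 sets. Among positive cells, low reads made up a larger part in the June sets. In WT batch 2, 20 of the 21 positive cells had 100 or more Gp2 reads, and in the Aire-/- set 14 of 16 did. In June5 only 4 of 11 positive cells and in June29 22 of 33 had that many. The no-cell well labelled June29 held 14 Gp2 reads among 9892 gene reads, a level of 1415 CPM (774 to 2375). There, 5 or more reads came without a sorted cell. That well also held 2 reads of Unc5b and 1 of Plch1 and none of the other 5 genes. With 100 reads as the limit, a choice made after seeing the data, Gp2-positive cells were 13.8%, 25.3%, 22.5% and 14.6% of June5, June29, WT batch 2 and the Aire-/- set. The order of the sets therefore depended on the limit, with June5 level with June29 at 5 reads and lowest of the 4 at 100.

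**Figure D1:**
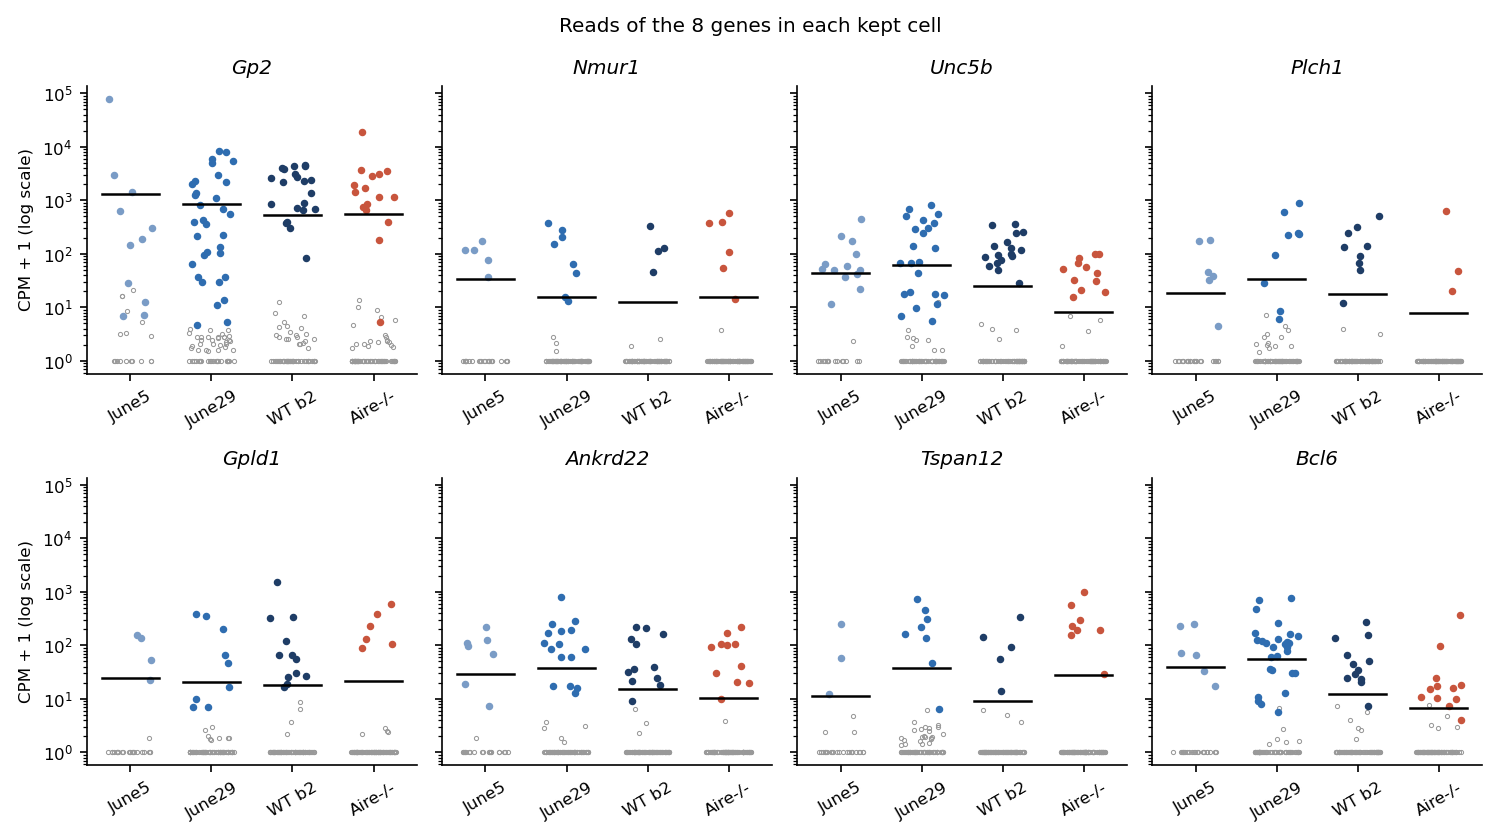
CPM + 1 on a log scale for each of the 8 genes in each kept cell of WT June5 (29 cells), WT June29 (87), WT batch 2 (WT b2, 89) and the set labelled Aire-/- (96). Filled points are cells with 5 or more reads, open grey points cells with fewer, and black bars the summed CPM of the set + 1. Gp2 reaches 78142 CPM in 1 June5 cell, and in batch 2 1 of its positive points lies below 80 CPM.

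Nmur1 (ENSMUSG00000026237.4, chr1:86386303-86426228, minus strand), the receptor through which neuromedin U acts on type 2 innate lymphoid cells and sensory neurons, was at 32.2, 14.8, 11.6 and 14.3 CPM in the 4 sets. It was detected in few cells, namely 5 of 29, 8 of 87, 4 of 89 and 6 of 96. Where it was detected it was well above the limit, with set medians from 107.5 to 243 CPM over positive cells. Its level per kilobase of exon was the second of the 8 in June5, WT batch 2 and the Aire-/- set and the fifth in June29.

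Its ligands Nmu and Nms and the sister receptor Nmur2 had 0 reads in every kept cell of all 4 sets, which allows at most 0.120 CPM in June5 and 0.0274 in June29. Downstream of a Gq-coupled receptor, Plcb2 was at 1269, 1351, 679 and 598 CPM and the calcium channel gene Itpr2 at 626, 961, 427 and 313 CPM. The alpha subunit Gnaq was at 26.1, 40.4, 22.7 and 10.5 CPM. Transcripts of the receptor, in few cells, and of these downstream genes were thus present in each set, while transcripts of its ligands were not detected at this depth. Whether the same cells held the receptor and the downstream genes was not counted.

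Unc5b (ENSMUSG00000020099.7, chr10:60762593-60831581, minus strand), a netrin receptor that guides axons and vessels, was at 42.6, 60.2, 24.1 and 7.09 CPM. Positive cells were 44.8% (26.4 to 64.3), 26.4% (17.6 to 37.0), 19.1% (11.5 to 28.8) and 12.5% (6.63 to 20.8). Its reads were less concentrated than those of Gp2, with 14.8% to 44.8% of a set's Unc5b reads in the top cell. The highest cell reached 814 CPM in June29 and 100.5 CPM in the Aire-/- set.

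Of the netrins, Ntn1 was at 0, 1.98, 4.76 and 0.290 CPM and Ntn5 at 10.9, 5.51, 5.58 and 24.8 CPM, the last in 14.6% of cells. The netrin G gene Ntng2 was at 16.8, 20.6, 10.3 and 7.77 CPM. In the netrin list Flrt3, an adhesion protein that binds UNC5 receptors, had the most reads, at 42.01, 92.6, 109.5 and 46.9 CPM. Neo1, a receptor shared by netrins and repulsive guidance molecules, was at 3.24, 36.02, 33.7 and 32.7 CPM.

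Plch1 (ENSMUSG00000036834.16, chr3:63696234-63899472, minus strand) encodes a calcium-sensitive phospholipase C of the eta class. It was at 17.8, 33.3, 16.7 and 6.97 CPM, with 6 of 29, 9 of 87, 9 of 89 and 3 of 96 cells positive. In the Aire-/- set 1 of the 3 cells held 87.5% of the reads. Plcg2, the phospholipase C list's second highest by CPM in WT batch 2 after Plcb2, was at 475, 428, 504 and 639 CPM.

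Gpld1 (ENSMUSG00000021340.12, chr13:24943152-24992501, plus strand), the phospholipase D that releases GPI-anchored proteins from membranes, was at 23.7, 20.0, 17.4 and 20.5 CPM. Positive cells were 4 of 29, 9 of 87, 12 of 89 and 6 of 96, and the highest cell, in WT batch 2, was at 1509 CPM. Its summed level rested on single cells, as the top cell held 61.2%, 36.2%, 42.1% and 40.7% of a set's Gpld1 reads. The mean of per-cell CPM was 12.7, 12.4, 29.4 and 15.8. Without its top cell in June5, the log2 fold from June5 to June29 went from -0.23 to 0.90. Gpld1 shares 5019 bases, including exon sequence, with Mrs2 on the opposite strand, and whether reads were counted by strand is not given in the sources used here, so its reads cannot be told apart from those of Mrs2 there. Among GPI-anchored proteins other than Gp2, Cd24a was at 3089.6, 1213, 2499 and 3188 CPM and Prnp at 664, 870.5, 1016 and 1122 CPM. Of the genes that build and attach the anchor, Gpaa1 and Pgap2 were lowest in June29, at 50.7 and 72.8 CPM.

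Ankrd22 (ENSMUSG00000024774.15, chr19:34121469-34166053, minus strand) was at 27.9, 37.1, 14.2 and 9.55 CPM, with 24.1%, 18.4%, 13.5% and 11.5% of cells positive. It overlaps Lipm on the opposite strand over 1219 bases. The highest cell of each set lay between 218 and 792 CPM.

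Tspan12 (ENSMUSG00000029669.14, chr6:21771395-21852515, minus strand), which helps Norrin signal through the receptor Frizzled 4, was at 10.2, 36.1, 8.24 and 26.6 CPM. Positive cells were 3 of 29, 8 of 87, 5 of 89 and 8 of 96. The June29 and Aire-/- levels each drew over 40% of their reads from 1 cell, 45.2% and 43.1%. June29 was also the set with most cells below the limit, as 23 of its cells had 1 to 4 reads of Tspan12 against 3, 3 and 0 in the others. Ndp, which encodes Norrin, and Fzd4 had 0 reads in all 4 sets, while the co-receptor Lrp5 was at 4.12, 12.7, 11.3 and 4.77 CPM. Tspan6 had the most reads of the tetraspanin list in each set, from 530.4 to 1026 CPM.

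Bcl6 (ENSMUSG00000022508.5, chr16:23965052-23988852, minus strand), the repressor that germinal centre B cells and follicular helper T cells depend on, was at 38.7, 53.8, 11.4 and 5.63 CPM. Positive cells were 20.7% (7.99 to 39.7), 32.2% (22.6 to 43.1), 13.5% (7.17 to 22.4) and 12.5% (6.63 to 20.8). Thinning left the wild-type shares at 21.7%, 27.1% and 11.4% but took the Aire-/- share to 2.38%, and its positive cells had a median of 9 reads against 29 or more in the wild-type sets. Among corepressors that Bcl6 recruits, Ncor1 was at 138.4, 148.2, 141.3 and 61.6 CPM. Of textbook Bcl6 targets, Cdkn1a was at 474, 507, 424 and 262 CPM and Prdm1 was at 0 in 3 of the 4 sets and at 4.64 CPM in June29.

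Over the 8 genes and the 6 ways to pair the sets, counting intervals of the shares failed to overlap in 4 of 48 comparisons. These were Gp2 in June29 against the Aire-/- set, Unc5b in June5 against it, and Bcl6 in June29 against both WT batch 2 and the Aire-/- set. After thinning 2 of the 4 were left, Unc5b in June5 and Bcl6 in June29, each against the Aire-/- set. For the other 5 genes no pair of sets was separated beyond counting error, so their order across sets is not established. How often such intervals fail to overlap over all genes was not computed. The counts of 4 and 2 therefore have no background beside them and are no result about the 8 genes.

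**Figure D2:**
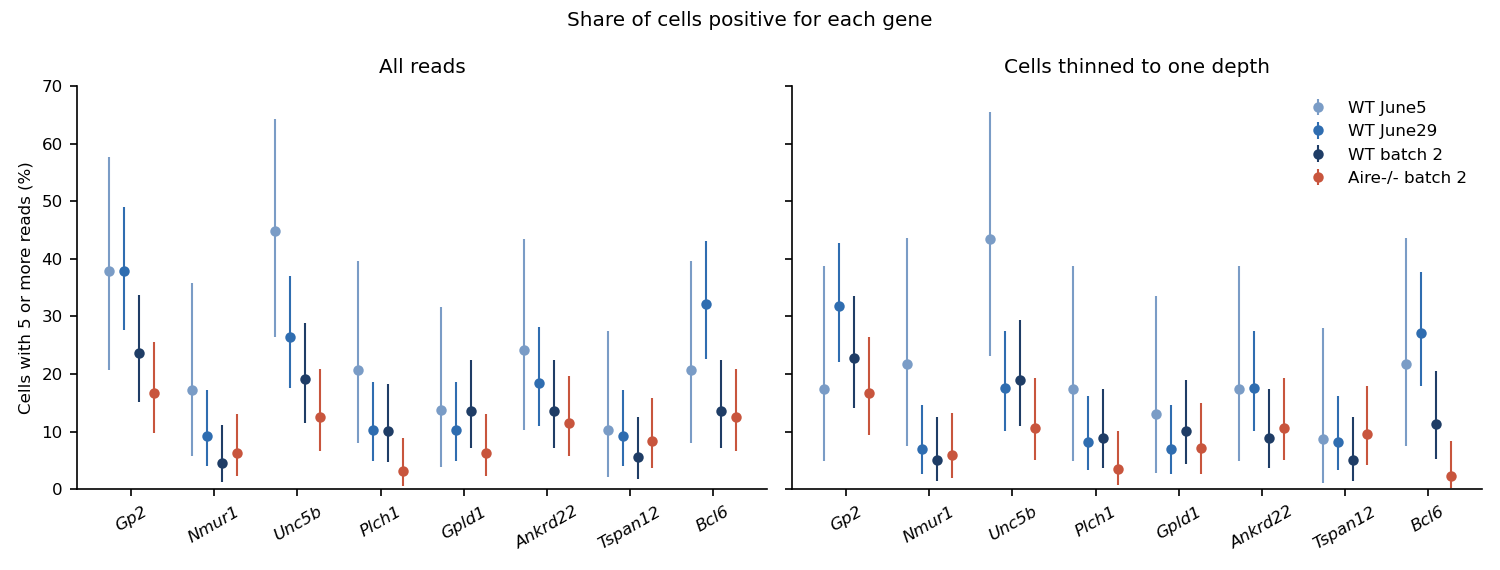
Percent of cells with 5 or more reads of each gene in the 4 sets, with all reads (left) and after thinning each cell to 231697 reads (right). Points are shares and bars exact 95% binomial intervals, which cover counting error only. Unc5b in June5 reaches 44.8% and Bcl6 in the Aire-/- set goes from 12.5% to 2.38% on thinning.

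Setting the Aire-/- cells against those of WT batch 2 asks how the 8 genes stood in mice labelled as lacking Aire, the regulator of tissue antigens in medullary epithelium. Unc5b was the lowest of the 8 relative to WT, at 7.09 against 24.1 CPM, a log2 fold of -1.63 with 1 CPM added to each side. Plch1 was at -1.15, Bcl6 at -0.91 and Ankrd22 at -0.52 on the same log2 scale. Gpld1 was at 0.22 and Gp2 at 0.09, both of which took the other sign with the mean of per-cell CPM. Nmur1 was at 0.28 and Tspan12, at 26.6 against 8.24 CPM, at 1.58. The 8 genes thus pointed both ways, 4 on each side, with a median log2 fold of -0.22. Over the 4 with 20 CPM in the higher set the median was 0.16, beside -0.03 over all genes at that level.

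None of the 8 passed the size rule used here, which asks for a log2 fold of 1, 20 CPM where the gene is higher and shares of positive cells 15 percentage points apart. Gp2, Unc5b, Gpld1 and Tspan12 had the 20 CPM, and the widest gap in their shares was that of Gpld1, at -7.23 points. Of the 8267 genes with 20 CPM, 1.02% passed upward and 0.399% downward, so a count of 0 among 4 is near that background. The rule is not a test. In the same comparison MHC class II genes were higher in the cells labelled Aire-/-, with 4 of 6 members past the rule and Cd74 at 2149 against 666 CPM, and their part in the values of the 8 genes was not tested.

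The authors' table of wells splits the batch 2 wells by 2 numbers in a column headed Batch, and each number holds both genotypes. The numbers are called plate 1 and plate 2 here, a name that the authors' table does not give. The contrast was taken within each. Unc5b was lower in the Aire-/- cells on both, at 8.74 against 32.2 CPM on plate 1 and 5.42 against 14.3 CPM on plate 2, with 6 of 48 against 11 of 48 and 6 of 48 against 6 of 41 cells positive. Plch1, Ankrd22 and Bcl6 were lower on both plates too, but the size differed, as for Bcl6 with log2 folds of -0.25 and -2.33 and for Plch1 with -0.34 and -2.91. Gp2 took opposite signs, at 318 against 529.7 CPM on plate 1 and 812 against 533 CPM on plate 2. Tspan12 did so as well, with log2 folds of -1.64 and 3.64.

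Removing from the higher set its top cell for a gene changed the sign for 3 genes. Gp2 went to a log2 fold of -1.0, Nmur1 to -0.46 and Gpld1 to -0.46. Tspan12 went from 1.58 to 0.82 and Unc5b from -1.63 to -1.41. In bulk sums of this kind, fewer cells of a type and less RNA per cell cannot be told apart. The shares of positive cells can be read beside them. For Unc5b the share was 12.5% in the Aire-/- set and 19.1% in WT batch 2, with overlapping counting intervals. On plate 2 it was 6 of 48 against 6 of 41 cells. The median level over its 12 and 17 positive cells was 47.6 CPM in the Aire-/- set and 97.9 CPM in WT batch 2. What lay behind the Unc5b fold was not tested.

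**Figure D3:**
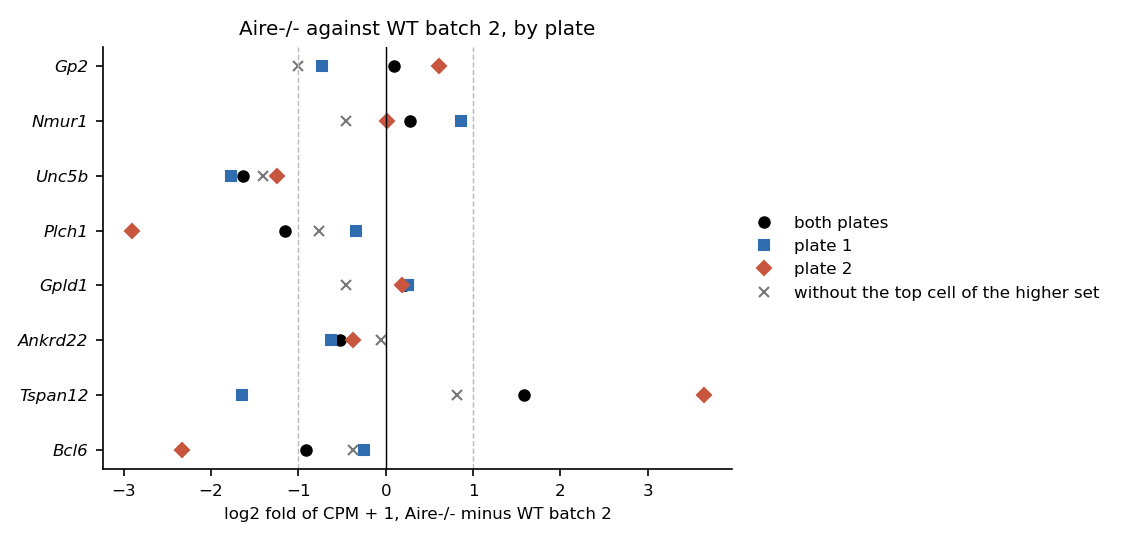
log2 fold of CPM + 1, cells labelled Aire-/- minus WT batch 2, for each gene over both plates (black), on plate 1 (squares), on plate 2 (diamonds) and without the top cell of whichever set was higher (crosses). Dashed lines mark a log2 fold of 1 either way. Tspan12 lies at -1.64 on plate 1 and 3.64 on plate 2, while Unc5b lies below -1 in all 4 settings.

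Few pathway genes around the 8 passed the rule in this comparison, and with 1.02% up and 0.399% down over all genes a count of 0 in lists of this size is near the background. Of the neuromedin and Gq list 0 of 9 genes with 20 CPM passed, of the netrin list 0 of 4, of other phospholipase C genes 0 of 6, of tetraspanins 0 of 17 and of the Norrin and Frizzled list 0 of 5. Of GPI anchor synthesis 0 of 17 and of other GPI-anchored proteins 0 of 14 passed. Among Bcl6 corepressors 1 of 6 passed, Ncor1, a scaffold of histone deacetylase complexes, at 61.6 against 141.3 CPM and 44.8% against 60.7% of cells. Of Bcl6 targets 0 of 5 passed, with Cish at 148.3 against 78.6 CPM.

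The 3 wild-type sets share a genotype label, so contrasts between them show how far the 8 genes varied under 1 label. All 8 were lower in WT batch 2 than in June29, with a median log2 fold of -1.12, and of -1.28 over the 7 with 20 CPM beside 0.16 over all such genes. Bcl6 passed the size rule, at 11.4 against 53.8 CPM and 13.5% against 32.2% of cells, a log2 fold of -2.14. Leaving out the top June29 cell gave -1.92 for Bcl6, and turned Nmur1 and Gpld1 to 0.10 and 0.40. It was 1 of 7 members with 20 CPM, where 2.68% of 8513 genes passed downward and 3.38% upward. Tspan12 was at -2.01, Ankrd22 at -1.33 and Unc5b at -1.28 without the gap in shares that the rule asks for. June29 was sequenced deeper, had more cells with markers of blood cells and had a median mitochondrial share of 9.53% against 4.16%, and their part in these values was not tested.

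Against June5, none of the 8 passed. From June5 to June29 no member passed among 8 with 20 CPM, where 1.81% of 8358 genes passed upward and 3.40% downward, and the median log2 fold was 0.43 beside -0.11 over all genes. From June5 to WT batch 2 none of 6 passed, where 1.90% of 8561 genes passed upward and 3.97% downward, and the median over those 6 was -1.11 beside 0.08. All 8 were lower in WT batch 2 than in June5, but without the top June5 cell of each gene 4 of the 8 were higher, with Plch1 at 0.98, Gpld1 at 0.71 and Tspan12 at 0.65. The June5 Gp2 level also rested on 1 cell, without which the log2 fold from June5 to June29 went from -0.62 to 2.75 and that to WT batch 2 from -1.28 to 2.09. These wild-type contrasts share sets with each other and with the Aire-/- contrast.

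Among pathway genes, Plcb4, a phospholipase C of the Gq cascade, was higher than in June5 in both other wild-type sets. It was at 8.27 CPM against 72.2 in June29 and 77 in WT batch 2 and passed both times. It is also in the phospholipase C list, as 1 of 7 genes with 20 CPM each time. Gna11, a Gq-class alpha subunit, was at 39.5 CPM in June29 against 4.88 in June5 and also passed. Neo1 passed from June5 to WT batch 2. The tetraspanin Cd151 was lower in June29 (11.8 CPM) and WT batch 2 (10.4 CPM) than in June5 (98.6 CPM), and Tspan1 was lower in June29 than in June5, at 414 against 896 CPM. Among anchor synthesis genes, Pigc was lower in June29 than in June5 (50.3 against 119.6 CPM) and Pigq was higher in WT batch 2 than in June29 (94.4 against 35.1 CPM). From June5 to June29, 2 of 9 neuromedin and Gq genes with 20 CPM, 2 of 15 tetraspanins and 1 of 20 anchor synthesis genes passed. From June5 to WT batch 2, 1 of 8, 1 of 15 and 1 of 3 of the netrin list did, and from June29, 1 of 17 anchor synthesis genes. Of all genes, 1.81% to 3.97% passed in a given direction, so counts this small are no result about the lists.

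Gp2 is best known from microfold cells, so markers of those cells were set beside it. Spib, a transcription factor of microfold and tuft cells, was in 82.8% to 92.7% of cells. Sox8, a factor that drives Gp2 in microfold cells, was at 46.3 and 50.7 CPM in June5 and June29. It was at 13.7 and 7.53 CPM in WT batch 2 and the Aire-/- set. From June5 and from June29 to WT batch 2 it passed the rule downward, as 1 of 12 and 1 of 10 list genes with 20 CPM. Of all genes, 3.97% and 2.68% passed downward there. The chemokine genes Ccl9, Ccl20 and Ccl6 were positive in at most 3.45% of cells of any set. Prnp and Anxa5 had the most reads of the list in WT batch 2, at 1016 and 660.4 CPM. Summed, the 14 markers lay between 2838 and 3428 CPM in the 4 sets.

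Detection of several of the 8 genes in the same cell was counted next. Cells positive for 2 or more of the 8 were 17 of 29 (58.6%), 35 of 87 (40.2%), 27 of 89 (30.3%) and 19 of 96 (19.8%). If each gene were positive independently at its own share, 60.8%, 48.02%, 27.6% and 17.5% would be. The counts of cells with 2 or more were thus within 8 percentage points of the product in every set, below it in June5 and June29 and above it in batch 2. Cells with 3 or more were 8, 20, 9 and 6, beside 8.25, 15.5, 6.19 and 3.15 from the product. Cells with none were 7, 23, 35 and 47, beside 3.03, 14.6, 28.9 and 42.3, above the product in all 4 sets. The product takes no account of genes per cell. No other groups of 8 genes were counted in this way, so these counts have no background and are no result about the 8 genes.

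Taken by pairs, cells positive for both genes outnumbered the product of the 2 shares in 20, 24, 16 and 16 of the 28 pairs. Summed over pairs, the ratios of joint detections to the products were 1.47, 1.45, 1.26 and 1.28. Single pairs rested on 0 to 11 cells. With products taken separately for cells above and below the set's median of genes per cell, an alternative added after seeing the data, the ratios were 1.40, 1.26, 1.23 and 1.16. After thinning they were 1.47, 1.62, 1.45 and 1.34. Without the cells that carry blood cell markers, pairs above the product were 14, 24, 15 and 12. Neither the pair counts nor the ratios were computed for pairs of other genes, so no background stands beside them.

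**Figure D4:**
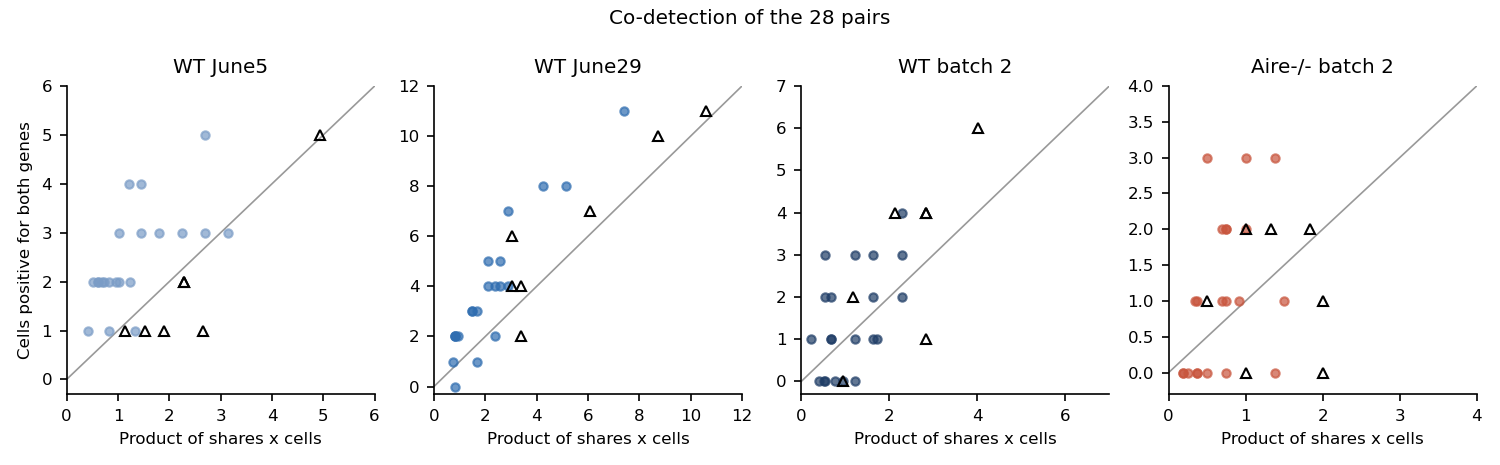
Cells positive for both genes of a pair against the product of the 2 shares times the number of cells, for the 28 pairs in each set. Triangles are the 7 pairs with Gp2, filled points the other pairs, and the line marks equality. Points above the line number 20, 24, 16 and 16 from left to right.

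Nearly every Nmur1-positive cell held another of the 8. Of the Nmur1-positive cells, 5 of 5, 7 of 8, 4 of 4 and 6 of 6 were positive for at least 1 other of the 8, beside 70.8%, 70.9%, 58.8% and 47.8% of the Nmur1-negative cells. This was not particular to Nmur1. For Plch1 the counts were 6 of 6, 9 of 9, 6 of 9 and 3 of 3 and for Tspan12 3 of 3, 8 of 8, 3 of 5 and 7 of 8. For Gp2 they were 9 of 11, 21 of 33, 12 of 21 and 7 of 16. Nmur1 with Tspan12 had the highest ratio over the 4 sets, with 7 cells positive for both beside 1.98 from the products, and Nmur1 with Ankrd22 followed with 10 beside 3.90. With products taken separately above and below the median of genes per cell, the products of these pairs were 2.81 and 4.96. These 2 pairs, Tspan12 with Bcl6 and Ankrd22 with Tspan12 lay above the product in all 4 sets. After thinning only Nmur1 with Ankrd22 and Gp2 with Tspan12 did. Over the 4 sets, 14 pairs were above in 3 sets, 8 in 2 and 2 in 1.

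Pairs with Gp2 lay on both sides of the product, with Gp2 counted at 5 reads, fewer than the 14 in the June29 no-cell well. Over the 4 sets Gp2 and Ankrd22 shared 11 cells beside 13.4 from the products, and Gp2 and Gpld1 shared 7 beside 8.76. Gp2 with Unc5b, 21 cells beside 19.7, and Gp2 with Bcl6, 18 beside 17.7, were close to the product, and Gp2 with Plch1, 11 beside 8.31, with Tspan12, 9 beside 6.69, and with Nmur1, 9 beside 6.87, were above it. In the Aire-/- set, 0 of 16 Gp2-positive cells were positive for Unc5b, beside 12 of 80 Gp2-negative cells, whereas in WT batch 2 6 of 21 were, beside 11 of 68. Counting Gp2 at 100 reads gave 0 of 14 and 5 of 20. With so few cells the opposite order in the 2 genotypes is a count and no more.

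The cells with most of the 8 genes were not all deep ones. A June5 cell was positive for 7, all but Gp2, of which it had 0 reads, and it also had the most genes of any cell in its set, 9107, from 2620087 gene reads. A June29 cell was positive for 6, lacking Gpld1 and Tspan12, with 910 reads of Bcl6, 820 of Unc5b, 447 of Nmur1, 436 of Gp2, 303 of Ankrd22 and 9 of Plch1. It had 1210116 gene reads, near its set's median, and was 27 by rank of genes per cell among 87. In WT batch 2 the maximum was 4, in 2 cells, and in the Aire-/- set it was 3, in 6 cells. The June5 cell, the June29 cell and 1 of the WT batch 2 cells carried 2 or more blood cell markers, and all 4 had 5 or more reads of at least 25 of the 28 tuft markers.

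Across cells, the number of the 8 genes detected went with genes per cell, with Spearman rho of 0.54, 0.53, 0.17 and 0.36. Cells with none had medians of 3496, 4014, 3962 and 4288 genes and cells with 2 or more had 5474, 6136, 4247 and 4853. After thinning rho was 0.56, 0.48, 0.14 and 0.16. At equal depth the higher values were thus those of the June sets. Cells with blood cell markers were 5 of 8, 7 of 20, 1 of 9 and 0 of 6 of the cells with 3 or more of the genes, and the part of doublets, for which no caller was run, was not tested.

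**Figure D5:**
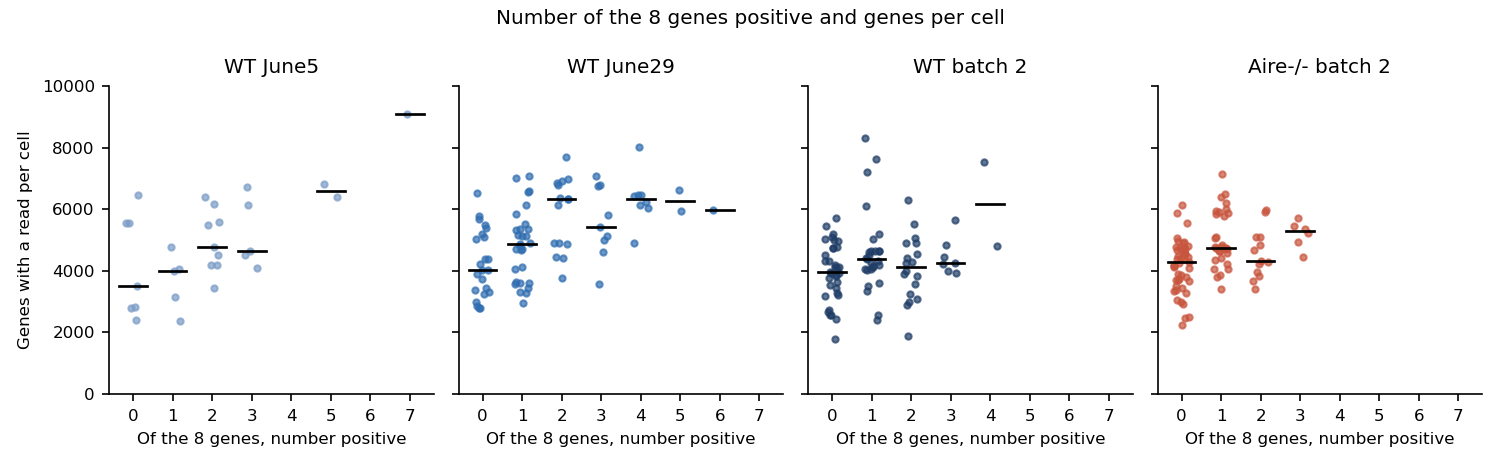
Genes with a read per cell against how many of the 8 genes had 5 or more reads, for each kept cell of the 4 sets, with horizontal jitter. Black bars are medians. The June5 cell with 7 of the genes has 9107 genes, and the median goes from 4014 with none to 6136 with 2 or more in June29.

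Levels of the 8 genes were weakly related across cells. On thinned counts, the median Spearman rho over the 28 pairs was 0.25, 0.12, 0.03 and 0.03 over 23, 85, 79 and 84 cells. The median rho of a member with all genes in the ranking was 0.07, 0.06, 0.01 and 0.00. Of the 28 pairs, 21, 22, 16 and 16 had a positive rho, and of the values of members with all genes 62.9%, 69.1%, 53.9% and 50.8% were positive. The points share a library preparation and were thinned to 1 depth, cells of batch 2 come from 2 plates, and in counts this sparse a weak rho carries little. Without the cells that carry blood cell markers, which were 11 of the 23 in June5, the median was 0.05, 0.08, 0.05 and 0.01. Whether the lower June5 value came with the markers or with the smaller number of cells was not tested. The highest pairs outside June5 were Nmur1 with Tspan12 in the Aire-/- set (0.39), Nmur1 with Bcl6 in WT batch 2 (0.37) and Plch1 with Bcl6 in June29 (0.34). None of these recurred at that size in every set, and Nmur1 with Tspan12 was at -0.03 in June29 and 0.11 in WT batch 2.

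Genes whose levels followed the 8 most closely in wild-type cells were ranked among 7315 others by the median rho over the 3 wild-type sets, with the Aire-/- cells, which the ranking did not use, beside. For Gp2 they were Luzp2 (0.35, and 0.09 in Aire-/- cells), the proteoglycan gene Sdc4 (0.32 and 0.06) and the ribosomal protein gene Rps27 (0.32 and -0.16). For Nmur1 they were Fhit (0.40 and -0.13), Med1 (0.39 and -0.08) and Mapk1ip1 (0.38 and -0.08). For Unc5b they were Bcl9l (0.45 and -0.01), Csnk1e (0.39 and -0.20) and Rock2 (0.37 and 0.06). The wild-type values made the ranking and the Aire-/- values did not, so the gap between them is no comparison of genotypes. Within the wild type the values were uneven too, as Luzp2 was at 0.09, Fhit at 0.00, Bcl9l at 0.13, Csnk1e at 0.12 and Rock2 at 0.08 in WT batch 2.

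For Plch1 the nearest was Efnb2, an ephrin ligand, at 0.41 in wild-type and 0.30 in Aire-/- cells, with 0.44, 0.05 and 0.41 in June5, June29 and WT batch 2. It was followed by Zscan29 (0.40 and -0.09) and Fermt1 (0.38 and -0.11). Gpld1 had Nudc-ps1 (0.49 and 0.02), Smim7 (0.43 and 0.00) and March7 (0.41 and -0.10), and Ankrd22 had Commd9 (0.40 and 0.05), Tspan6 (0.39 and -0.05) and Phyh (0.39 and 0.12). Tspan12 had Rpa3 (0.48 and -0.06), Pepd (0.46 and 0.08) and Ap3s2 (0.45 and -0.08), and Bcl6 had Shoc2 (0.44 and -0.02), Tsg101 (0.40 and -0.13) and Prkcz2 (0.39 and 0.02). Of the 24 neighbours, 9 had a positive rho in the Aire-/- cells and Efnb2 with Plch1 was the single one at 0.2 or more.

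For the 8 genes as a group, the 10 nearest by mean rho in wild-type cells were Sdc4 (0.23), Tmem45b (0.22), Cd24a (0.22), Tspan8 (0.20), Tppp (0.20), Cdh1 (0.20), Tspan6 (0.19), Rnf19b (0.19), Rab11a (0.19) and Atp8b1 (0.19), beside a median of 0.05 over the genes ranked. In the Aire-/- cells Tmem45b was at 0.11, the 98.5th percentile of the genes ranked, and Cd24a at 0.10, the 97.6th percentile, while Sdc4 and Tspan8 were at 0.01. Cd24a, a GPI-anchored surface protein, and Cdh1, the epithelial cadherin, were in most cells of every set, at 90.6% to 93.1% and 66.3% to 75.9%. Tmem45b was in 35.4% to 41.4%.

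Readouts that did not enter the choice were set against the number of the 8 genes per thinned cell. Cd24a, which the ranking above had picked on the wild-type cells, so that only its Aire-/- value is apart from that choice, had a rho of 0.27, 0.60, 0.38 and 0.29, and Dclk1, a kinase that marks tuft cells, had 0.26, 0.20, 0.35 and 0.32. With genes per cell held fixed by partial correlation, also added after seeing the data, Dclk1 kept 0.41, 0.29, 0.35 and 0.34, and Cd24a had 0.02, 0.48, 0.36 and 0.28. Dclk1 was thus positive in all 4 sets either way, and Cd24a was near 0 in June5 with genes per cell held fixed. The summed tuft markers were at 0.04, 0.42, 0.25 and 0.26. Trpm5 and Pou2f3, also tuft markers, did not share the sign of Dclk1 across sets. Before genes per cell were held fixed, Trpm5 was at -0.11, -0.12, -0.04 and 0.19 and Pou2f3 at -0.04, 0.33, -0.07 and -0.10, each positive in only 1 set.

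Other readouts varied in size and sign. Other tetraspanins, a list that holds Tspan6 and Tspan8 of the ranking above, ran from 0.07 to 0.53, and from -0.02 to 0.30 with genes per cell held fixed. The neuromedin and Gq list ran from -0.52 to 0.07 and thymocyte markers from 0.01 to 0.27. GPI-anchored proteins without Cd24a ran from -0.08 to 0.33, the microfold list from -0.07 to 0.24, the number of bitter receptor (Tas2r) genes from -0.21 to 0.05 and Il25 from -0.21 to 0.09. MHC class II genes ran from -0.25 to 0.09, and from -0.41 to -0.14 with genes per cell held fixed, negative in all 4 sets. So were the Tas2r genes, from -0.42 to -0.11, and the microfold list, from -0.24 to -0.02, with genes per cell held fixed. Other phospholipase C genes ran from -0.45 to -0.01. This list shares Plcb1, Plcb2, Plcb3 and Plcb4 with the neuromedin and Gq list. Plcb2 had the highest CPM of both lists in each wild-type set, so the 2 are not separate readouts. The summed Igfbp5, Colq and Tppp3, another group of genes that vary among these cells, ran from 0.10 to 0.35, and the summed Adh1, Lypd1 and Fabp5 from -0.16 to 0.19. Markers of low-MHC medullary epithelium ran from 0.16 to 0.25 and B cell markers from 0.09 to 0.38. These are descriptions over the cells of 1 sample each, with 23, 85, 79 and 84 cells.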

How the data were processed

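Full-length mRNA of 314 wells with 1 sorted cell each was analysed, with 2 wells of 50 cells and 1 well without a cell. The authors deposited counts as whole numbers of reads for each gene in a well, aligned and counted by the authors with STAR, Subread and featureCounts 1.5.3 on GRCm38, per the submitters' processing notes, which also name R 3.4.0. The annotation and strand setting were not given in the sources used here. A deposited score per gene and well, whose making the authors do not describe, was used only for its list of 292 wells. Names came from a table of gene IDs, which matched 48349 of 48887 entries, and positions from GENCODE M21. The 92 ERCC spike-in entries were left out of all totals.

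Cells kept had at least 10000 gene reads, 1000 genes and at most 20% mitochondrial reads. Counts were summed per set and scaled to CPM. Shares have exact Clopper-Pearson and sums exact Poisson 95% intervals, and a count of 0 allows 3 counts. Thinning drew 231697 reads per cell, the 10th percentile, without replacement. Correlations used the 8 genes, whatever their share, and other genes with 5 or more reads in 10% of the cells of each set. The 8 genes, the gene lists and the size rule were chosen with earlier results of these data known. The genes named are the 8, per gene the 3 and for the group the 10 with the highest median rho over the wild-type sets, and of each pathway list those past the size rule and the 2 highest in WT batch 2, with ligands and defining markers added after their values were seen. Scripts ran in Python 3.11.15 with numpy 2.4.6, scipy 1.17.1 and pandas 2.3.3 and were checked on simulated data.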

Additional observations from a re-analysis of the deposited data

Results flagged for a closer look

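Tspan12 took opposite directions on the 2 plates of batch 2 when Aire-/- cells were set against WT cells, by more than 1 on the log2 scale each way. On plate 1 its log2 fold was -1.64, from 12.4 CPM in WT cells (4 of 48 positive) and 3.33 CPM in Aire-/- cells (2 of 48 positive). On plate 2 it was 3.64, from 3.1 CPM (1 of 41) and 50.1 CPM (6 of 48). A single Aire-/- cell held 43.1% of the Tspan12 reads of its set. The difference between plates was not tested.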

How the results depend on the processing

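Each set is a single pooled sample without replicates, genes with few positive cells rest on single wells, and reads without molecular identifiers limit every interval to counting error. No paired analysis was possible because the replicate numbers are well numbers, which pair no cells, and the contrast within each plate stands in the report. The percent of cells with 2 or more of the 8 genes depended on the reads that make a cell positive. With 1 read it was 78.2% (40.2% with 5) for June29, 46.1% (30.3%) for WT batch 2 and 33.3% (19.8%) for Aire-/- cells, and with 100 reads, a limit added after seeing the data, 10.3% (58.6% with 5 in June5), 22.99%, 11.2% and 4.17% in the sets in the order of the report. At 100 reads the pairs above the product were 10 in WT batch 2 and 5 in the Aire-/- set, against 16 each with 5. Genes past the size rule between the Aire-/- set and WT batch 2, 1.02% up and 0.399% down of those tested, were 1.67% up with the mean of per-cell CPM, 0.375% up and 0.144% down with no minimum CPM, where more genes are tested, 2.65% up and 1.46% down on plate 1 and 3.62% up and 1.28% down on plate 2, where fewer cells stand behind each gene, and none of the 8 was among them under any setting. Without cells with blood cell markers the median rho between members fell from 0.25 to 0.05 in June5. Of the shares of single genes under alternatives, 13.5% left the counting interval, and of 56 single folds 16 moved by 0.5 or more. The cause of these shifts was not tested.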

Other observations

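The 2 wells of batch 2 that each received 50 cells belong to no comparison above, and the 8 genes were read there as well. In the WT well (720527 gene reads) Gp2 was at 1323 CPM, Ankrd22 at 38.9, Unc5b at 20.8, Bcl6 at 12.5, Plch1 at 5.55, Tspan12 at 2.78 and Gpld1 at 1.39 CPM. In the well labelled Aire-/- (539621 gene reads) Gp2 was at 397 CPM, Unc5b at 29.7, Tspan12 at 7.41, Ankrd22 at 3.71, and Plch1 and Gpld1 at 1.85 CPM each. Bcl6 had 0 reads in the Aire-/- well, which allows 5.56 CPM, and Nmur1 had 0 reads in both, which allows 4.16 CPM in the WT well. The counting intervals of Unc5b overlapped, 16.9 to 48.2 CPM from 16 reads in the Aire-/- well and 11.7 to 34.3 CPM from 15 reads in the WT well, so its order there is not established. Those of Gp2, 345 to 453 against 1240 to 1409 CPM, and Ankrd22, 0.449 to 13.4 against 25.8 to 56.2 CPM, did not overlap. Those of the remaining genes did. Over the single cells the Gp2 log2 fold was 0.09. Each well is 1 sample, and how often intervals fail to overlap over all genes was not computed. The labels give these 2 wells the count table of the other genotype, whereas the tables' headers hold each with its own.

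The read-depth limits of the no-cell well are wide. With 9892 gene reads, a count of 0 there allows up to 303 CPM, a level above the summed CPM of every member but Gp2 in all 4 sets.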
